A study of Mus musculus with 6 samples.

Results

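Blood and lymphatic endothelial genes were followed in dorsal skin of wild-type and tight-skin (Tsk) mice. The set was chosen by gene name and holds 10 of the 55291 genes in the count table. Pecam1, Cdh5, Vwf, Plvap and Emcn stand for blood endothelium, and Lyve1, Prox1, Flt4, Vegfc and Mmrn1 for the lymphatic side. RNA of 6 skin samples at day 40 was sequenced, 3 wild type of strain C57BL/6 and 3 of strain B6.Cg-Fbn1Tsk/J, whose genotype the labels write as Fbn1+/-. Tsk is an internal duplication in Fbn1, the gene of the microfibril protein fibrillin 1, so the labelled genotype is read here as heterozygous for Tsk, which is an assumption. The allele is carried by the whole animal, and the labels name no transgene, Cre driver or treatment in either group. Whole skin was used, so each library mixes vessels with epidermis, hair follicles, dermis, fat and muscle.

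Endothelial cells line all vessels. Pecam1 encodes an adhesion protein and Cdh5 the VE-cadherin of their junctions, and both are also made by lymphatic endothelium. Vwf encodes von Willebrand factor, stored in endothelial granules and platelets. Plvap forms the diaphragms of fenestrae and caveolae, and Emcn encodes the sialomucin endomucin of capillaries and veins. On the lymphatic side, Prox1 is the transcription factor that sets lymphatic identity and Flt4 encodes VEGFR-3, the receptor of the growth factor VEGF-C, which Vegfc encodes. Lyve1 encodes a hyaluronan receptor of lymphatic capillaries that some tissue macrophages also carry, and Mmrn1 encodes multimerin 1 of lymphatic endothelium and platelets. Vegfc is a ligand made by several cell types and is not by itself a marker of lymphatic endothelium.

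Promoter windows of 5 of the 10 members were in the RefSeq table (build GRCm38.p6, 250 bases before to 50 bases after a transcript start). They are those of Emcn, Flt4, Mmrn1, Prox1 and Vegfc. Of these, 3 are shown, Emcn and Flt4 with Tsk libraries all above wild type and Prox1 with overlapping groups. None of the 3 passed the threshold of the test described below. The members that did pass, Plvap, Vwf and Lyve1, had no window in the table. Capitals mark the motif GGAAG, searched here as a site of ETS transcription factors of endothelium, on either strand. Shorter or variant ETS sites were not searched and are not marked.
Emcn (chr3:137340828-137341127, plus strand): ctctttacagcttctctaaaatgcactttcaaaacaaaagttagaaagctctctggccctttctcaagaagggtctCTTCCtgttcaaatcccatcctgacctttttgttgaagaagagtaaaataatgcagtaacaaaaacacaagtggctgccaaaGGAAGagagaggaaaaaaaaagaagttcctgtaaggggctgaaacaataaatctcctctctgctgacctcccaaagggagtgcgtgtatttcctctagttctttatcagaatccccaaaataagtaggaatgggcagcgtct
Flt4 (chr11:49609429-49609728, plus strand): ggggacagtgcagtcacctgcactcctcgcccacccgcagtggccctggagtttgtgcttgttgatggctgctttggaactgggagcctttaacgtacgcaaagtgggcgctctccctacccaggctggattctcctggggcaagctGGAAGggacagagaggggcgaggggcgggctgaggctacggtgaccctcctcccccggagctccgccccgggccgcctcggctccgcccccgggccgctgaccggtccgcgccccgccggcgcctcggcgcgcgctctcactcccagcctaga
Prox1 (chr1:190170778-190171077, minus strand): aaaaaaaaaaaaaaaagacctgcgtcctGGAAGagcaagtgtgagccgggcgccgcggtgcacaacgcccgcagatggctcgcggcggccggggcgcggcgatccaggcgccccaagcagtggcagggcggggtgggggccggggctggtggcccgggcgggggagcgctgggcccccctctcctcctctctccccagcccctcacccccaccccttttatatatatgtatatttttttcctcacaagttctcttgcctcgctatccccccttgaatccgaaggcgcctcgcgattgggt
The motif occurred 2 times in the Emcn window, 1 time in that of Flt4 and 1 time in this window of Prox1, which has a second start in the table whose window held 3. Of 20466 promoter windows of protein-coding genes, 72.4% held it on either strand. The SOX motif ACAAT, also searched on both strands, occurred 1 time in the Emcn window, away from the capitals, and in 27.1% of all windows. It was not among the letters of the Flt4 and Prox1 windows shown. A match is a description of the sequence.

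Library totals ran from 17561271 to 19219622 counts. Fbn1 separated the labelled groups, at 260, 351 and 295 CPM in wild type and at 1447, 2049 and 1778 CPM in Tsk, and these gene-level values do not show the allele. CPM (counts per 1e6) are counts divided by the library total adjusted by TMM, a scaling factor per library. The edgeR quasi-likelihood test called 683 of 19971 genes changed at an adjusted p under 0.05, 544 higher and 139 lower in Tsk. Without wild-type replicate 1 the split was 763 higher and 618 lower, and without wild-type replicate 3 it was 47 and 16. With library totals alone as the scaling, 1695 were higher and 96 lower, and the median log2 fold change of all genes was 0.25 in place of -0.03. At least 4000 of the 19971 genes had an unadjusted edgeR p under 0.05 in either direction. DESeq2 called 1136 higher and 411 lower of 34809 genes with a count above 0. The skeletal muscle list took 17.9 to 26.0% of counts in wild type and 15.4 to 17.7% in Tsk. Separate animals are not named for the samples of a group, so the spread behind each p-value may be technical.

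Of the 10 members, 9 passed the filter on low counts, and 3 of these rose in Tsk skin: Plvap and Vwf of the blood endothelial genes and Lyve1 of the lymphatic genes. None fell, and no tested member had a log2 fold change below 0. Over all genes tested, 2.72% were called higher and 0.696% lower. In 7 of the 9 tested members every Tsk library lay above every wild-type library, where 14.1% of all genes tested were separated in that direction. Cdh5 and Prox1 had overlapping groups, as did Mmrn1, which the filter removed. In bulk skin, more cells of a type and more RNA per cell cannot be told apart.

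**Figure D1:**
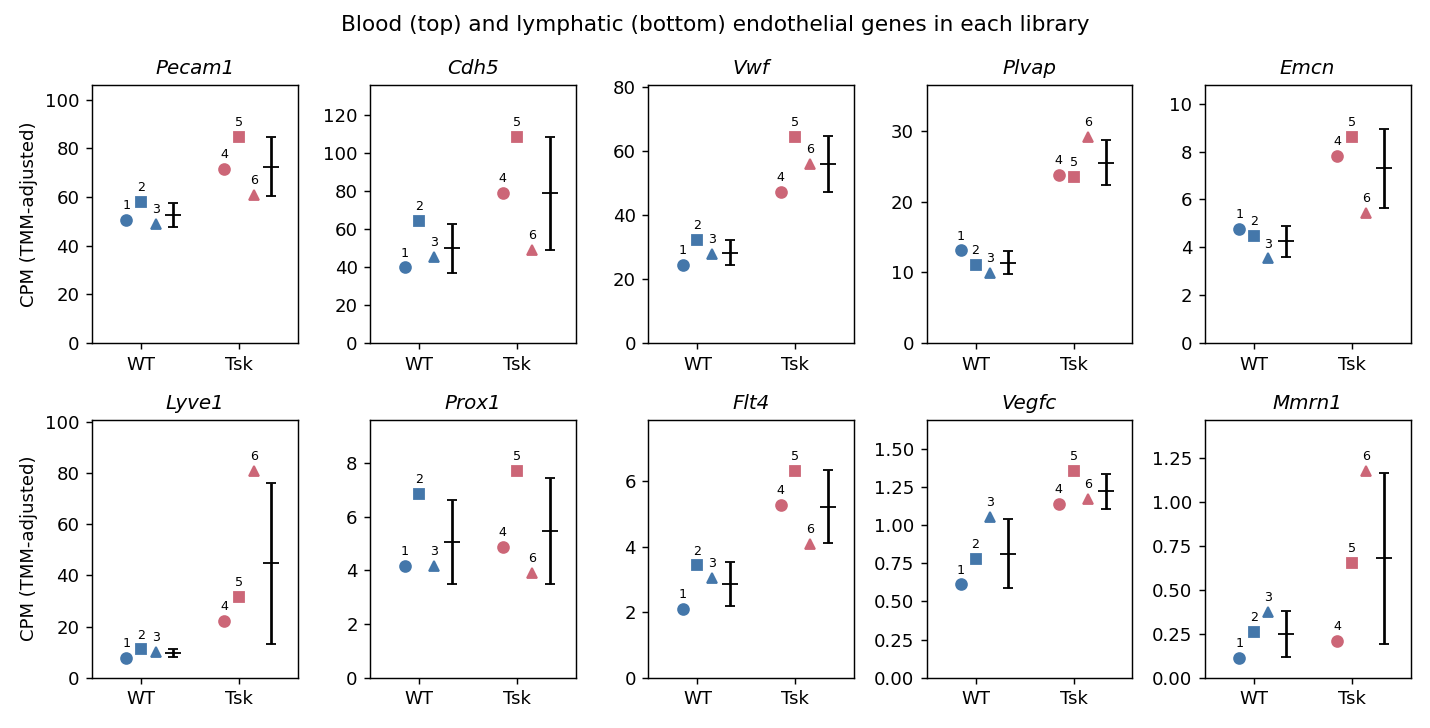
Level of each member in CPM (y axis, from 0) in the 3 wild-type (blue) and 3 Tsk (red) libraries, with the replicate number at each point and the mean with its SD (n = 3) beside each group. Plvap and Vwf show separated, compact groups, Lyve1 is spread from 22.2 to 80.7 CPM in Tsk, and Prox1 overlaps between 3.90 and 7.70 CPM.

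Plvap (chromosome 8, 71497765 to 71511752, minus strand, mm10) had the smallest p of the members. It stood at 13.1, 11.1 and 9.98 CPM in wild-type replicates 1, 2 and 3 and at 23.9, 23.5 and 29.3 CPM in Tsk replicates 4, 5 and 6. The lowest Tsk library was well above the highest wild-type library, and neither group spread widely. The log2 fold change was 1.16 ± 0.15 (SE), which is 2.24-fold with a 95% interval of 1.76 to 2.86 (edgeR adjusted p = 0.0105). Plvap overlaps Gtpbp3 on the opposite strand, but no exons overlap.

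Vwf (chromosome 6, 125546774 to 125686679, plus strand) stood at 24.5, 32.3 and 27.8 CPM in wild type and 47.1, 64.5 and 56.0 CPM in Tsk. The groups did not overlap, and Tsk replicate 5 was the highest. Its fold was 1.98 with an interval of 1.55 to 2.54 (log2 0.99 ± 0.16, edgeR adjusted p = 0.0169). Both Plvap and Vwf lost the call without wild-type replicate 3, at adjusted p of 0.0611 and 0.0813 by edgeR, with log2 fold changes of 1.09 and 0.99. Platelets also hold Vwf, and the platelet and megakaryocyte list summed to 9.72, 7.44 and 12.2 CPM in wild type and 13.3, 12.1 and 18.9 CPM in Tsk. Of its 9 genes 3 were tested and 0 were called by edgeR (2 at an unadjusted p under 0.05, 1 by DESeq2). The platelet receptor genes Gp1ba and Gp1bb, both removed by the filter, ran from 0 to 0.0647 CPM and from 0 to 1.81 CPM. The platelet chemokine gene Pf4 was higher in each Tsk library (log2 1.12 ± 0.33, edgeR adjusted p = 0.106) and the collagen receptor gene Gp6 lower (-1.21 ± 0.36, edgeR adjusted p = 0.105), and neither passed. The part of platelets in the Vwf values was not tested.

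Pecam1 (chromosome 11, 106654217 to 106750628, minus strand) stood at 50.7, 58.0 and 49.0 CPM in wild type and 71.7, 84.9 and 60.9 CPM in Tsk. The groups were separated, but Tsk replicate 6 lay close to wild-type replicate 2. The fold was 1.38 with an interval of 1.09 to 1.75, and the edgeR adjusted p was 0.131. Emcn (chromosome 3, 137341067 to 137432185, plus strand) stood at 4.78, 4.46 and 3.53 CPM against 7.81, 8.63 and 5.45 CPM. Its groups were separated as well, with Tsk replicate 6 again the lowest of its group. The fold of Emcn was 1.71 with an interval of 1.20 to 2.44 (edgeR adjusted p = 0.10), so neither gene passed.

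Cdh5 (chromosome 8, 104101625 to 104144511, plus strand) was the blood endothelial gene with the widest spread. Wild-type libraries held 39.8, 64.5 and 45.3 CPM and Tsk libraries 79.0, 109 and 49.2 CPM. Tsk replicate 6 lay below wild-type replicate 2, so the groups overlapped. The log2 fold change was 0.66 ± 0.29 (edgeR adjusted p = 0.249), a 1.59-fold difference with an interval of 1.00 to 2.51, and it was 0.36 without Tsk replicate 5. Wild-type replicate 2 and Tsk replicate 5 were each the highest of their own group for Cdh5 and for the red cell list. That list summed to 46.0, 184 and 59.5 CPM in wild type and 145, 279 and 97.8 CPM in Tsk. Of the 6 red cell genes 5 were tested and 0 were called by edgeR or DESeq2 (0 at an unadjusted p under 0.05), and the part of blood content in the Cdh5 values was not tested.

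Lyve1 (chromosome 7, 110850607 to 110863239, minus strand) had the largest fold change of the 9 tested members. It stood at 7.78, 11.1 and 10.1 CPM in wild type and 22.2, 31.5 and 80.7 CPM in Tsk. All Tsk libraries were above wild type, but replicate 6 held 3.64 times the level of replicate 4. The fold was 4.65 with an interval of 2.23 to 9.70 (log2 2.22 ± 0.46, edgeR adjusted p = 0.0435). Without Tsk replicate 6 the log2 value was 1.48 and still passed (edgeR adjusted p = 0.0264), whereas leaving out wild-type replicate 1, 2 or 3 gave adjusted p of 0.161, 0.176 and 0.158. With no filter on low counts, upper-quartile scaling or limma-voom, Lyve1 also missed the threshold, at adjusted p of 0.217, 0.0513 and 0.0644.

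The macrophage list summed to 454, 367 and 450 CPM in wild type and 554, 714 and 1412 CPM in Tsk, and was highest in Tsk replicate 6, as was Lyve1. Of its 14 genes 1 was called by edgeR, F13a1 of resident macrophages (log2 1.61 ± 0.31, edgeR adjusted p = 0.0314), and 13 were above 0. At an unadjusted p under 0.05, 11 were higher, and DESeq2 called 8. Over all genes, at least 4000 of 19971 passed the unadjusted p in either direction, and DESeq2 called 1136 of 34809 higher. Timd4, a phosphatidylserine receptor of resident macrophages, stood at 0.889, 0.582 and 0.744 CPM in wild type and 1.66, 2.15 and 4.88 CPM in Tsk without passing (edgeR adjusted p = 0.0570). The macrophage genes Adgre1 (log2 0.23 ± 0.37) and Cd68 (0.04 ± 0.40) and the Fc receptor gene Fcgr1 (-1.05 ± 0.59) had overlapping groups and did not pass. Of the 14 genes, 8 had every Tsk library above every wild-type library, against 14.1% of all genes tested, and 0 the reverse. Among the 8 were Csf1r (log2 1.06 ± 0.28) and Mrc1 (1.16 ± 0.35), which edgeR did not call. No gene of the list was at 0 in all libraries. The part of macrophages in the Lyve1 values was not tested.

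Prox1 (chromosome 1, 190118035 to 190170714, minus strand) showed no detectable difference. It stood at 4.17, 6.86 and 4.15 CPM in wild type and 4.86, 7.70 and 3.90 CPM in Tsk. The highest library of each group was far above the other 2, and the groups overlapped. The log2 fold change was 0.12 ± 0.31 (edgeR adjusted p = 0.871), and the fold of 1.09 had an interval of 0.672 to 1.76, so a rise the size of that of Plvap lay outside it and one the size of that of Pecam1 within it. Without Tsk replicate 5 the log2 value was -0.21. Prox1 shares exons with the antisense gene Prox1os, which held 0 to 5 counts per library.

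Flt4 (chromosome 11, 49609263 to 49652739, plus strand) stood at 2.11, 3.43 and 3.04 CPM in wild type and 5.28, 6.30 and 4.09 CPM in Tsk. The groups were separated, with Tsk replicate 6 nearest to wild type. The fold was 1.83 with an interval of 1.22 to 2.74 (log2 0.87 ± 0.26, edgeR adjusted p = 0.101), which did not pass. With library totals as the scaling Flt4, Emcn and Pecam1 passed too, at edgeR adjusted p of 0.0209, 0.0328 and 0.0188.

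Vegfc (chromosome 8, 54077606 to 54187096, plus strand) was sparse, with counts of 11, 12 and 17 in wild type and of 22, 29 and 25 in Tsk. These correspond to 0.611, 0.776 and 1.05 CPM against 1.14, 1.35 and 1.17 CPM, and the groups were separated by a narrow margin. The fold of 1.51 had an interval of 0.916 to 2.47 (edgeR adjusted p = 0.342). Mmrn1 (chromosome 6, 60924976 to 60989378, plus strand) had counts of 2, 4 and 6 in wild type and of 4, 14 and 25 in Tsk, too few for the filter. Its groups overlapped, and most of its Tsk counts came from replicate 6. The summed counts of 12 and 43 gave a Tsk to wild-type ratio of 2.86 per adjusted total, with an exact 95% interval of 1.48 to 5.97 that covers counting error only. Without the filter its log2 fold change was 1.46 (edgeR adjusted p = 0.293).

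**Figure D2:**
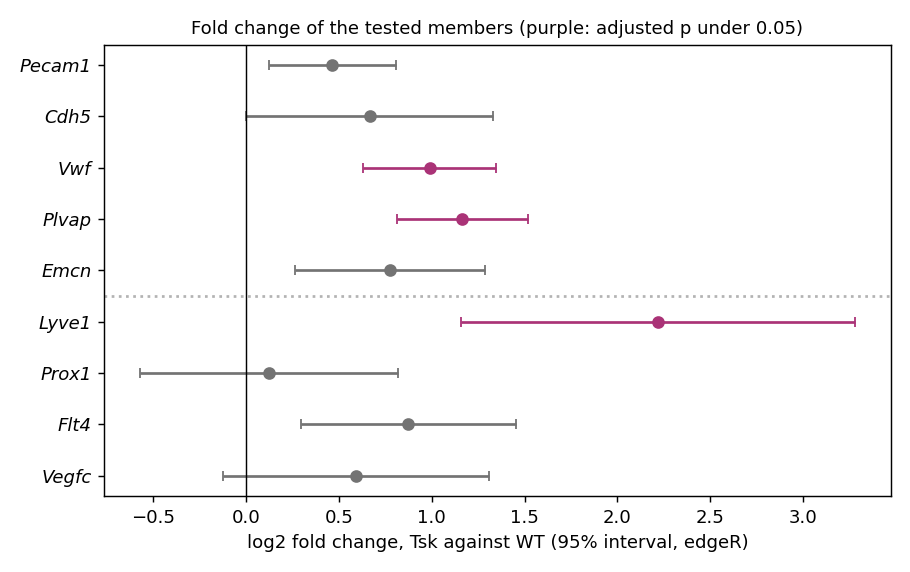
Log2 fold change of Tsk against wild type (x axis) for the 9 tested members, with edgeR 95% intervals over 3 libraries a group and purple for an adjusted p under 0.05. Plvap, Vwf and Lyve1 pass, the interval of Lyve1 is the widest, and those of Prox1 and Vegfc include 0.

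Scaled to exon length, the order of the members differed between groups. In wild type Cdh5 led at 11.9 ± 3.08 CPM per kilobase of exon (SD, n = 3), followed by Pecam1 at 8.44 ± 0.768, Plvap at 5.73 ± 0.799, Lyve1 at 3.31 ± 0.579 and Vwf at 1.75 ± 0.243 CPM per kilobase. Emcn at 0.787 ± 0.119 and Prox1 at 0.603 ± 0.186 CPM per kilobase overlapped, as did Flt4 at 0.347 ± 0.0822 and Vegfc at 0.332 ± 0.0914. Mmrn1 was the lowest at 0.0421 ± 0.0223 CPM per kilobase, and the other neighbours in this order had separate ranges. In Tsk Cdh5 stood at 18.8 ± 7.10, Lyve1 at 15.3 ± 10.8, Plvap at 12.9 ± 1.62 and Pecam1 at 11.6 ± 1.93 CPM per kilobase, and each of these overlapped the next. Lyve1 thus stood at rank 4 in wild type and rank 2 in Tsk, but with a range in Tsk from 7.60 to 27.7 CPM per kilobase that spanned those of Plvap and Pecam1. Below them came Vwf, Emcn, Prox1, Flt4, Vegfc and Mmrn1 in the same order of means as in wild type. Among these, the ranges of Prox1 and Flt4 and of Flt4 and Vegfc overlapped in Tsk.

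The members did not vary between libraries as 1 block. In wild type, replicate 2 was the highest library for 6 of the 10 members and the lowest for 0. In Tsk, replicate 5 was the highest for 7 members, while replicate 6 was the highest for Plvap, Lyve1 and Mmrn1 and the lowest for 5 others. Tsk replicate 5 also had the highest adipocyte sum, at 5170 CPM against 1662 and 1226 CPM in Tsk replicates 4 and 6 and 788, 1383 and 1099 CPM in wild type. In the adipocyte list 3 of 14 genes rose by edgeR, with the smallest p for Cebpa and Lep, 13 were above 0, and no gene was at 0 in all libraries. At an unadjusted p under 0.05, 10 were higher, and DESeq2 called 8. Over all genes, at least 4000 of 19971 passed the unadjusted p in either direction, and DESeq2 called 1136 of 34809 higher. The part of fat in the values of the members was not tested.

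**Figure D3:**
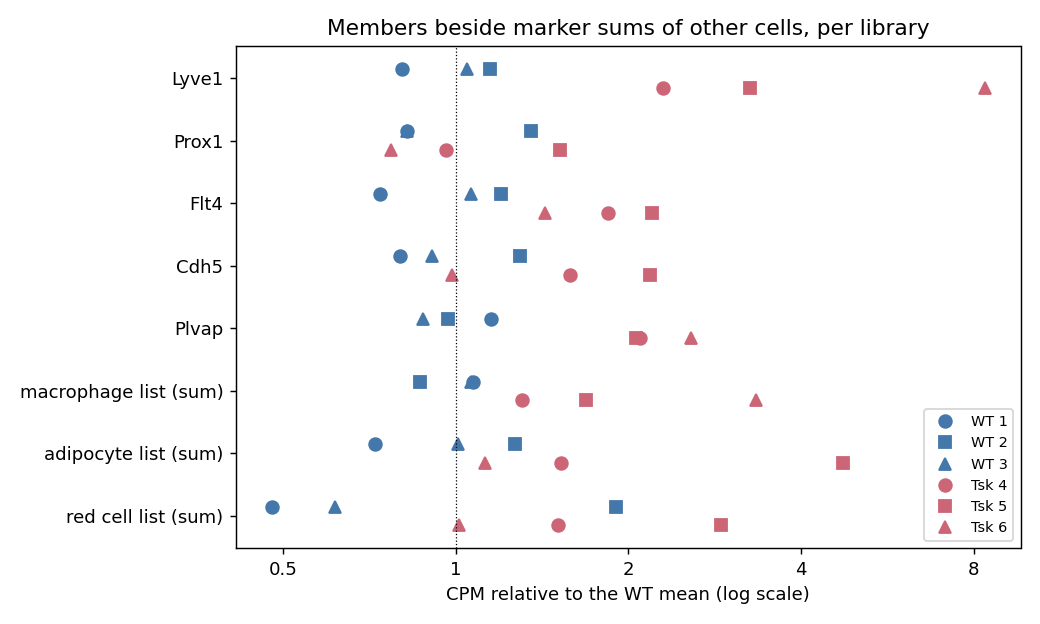
Level of 5 members and summed level of 3 marker lists in each library, divided by the wild-type mean (x axis, log scale), with blue for wild type and red for Tsk and 1 marker shape per replicate. Lyve1 and the macrophage sum are highest in Tsk replicate 6, whereas Cdh5, Flt4, Prox1 and the adipocyte and red cell sums are highest in Tsk replicate 5.

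Leaving out 1 library at a time kept the log2 fold change of 8 of the 9 tested members above 0. Vwf and Plvap passed in 5 of these 6 fits and Lyve1 in 3. Vwf ran from 0.87 to 1.10 and Plvap from 1.06 to 1.30, while Lyve1 ran from 1.48 to 2.54. With the mean log2 level of the skeletal muscle list as a covariate, 0 members passed by edgeR, at log2 values of 1.18 for Vwf, 0.92 for Plvap and 2.11 for Lyve1 and adjusted p of 0.129, 0.172 and 0.543.

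**Figure D4:**
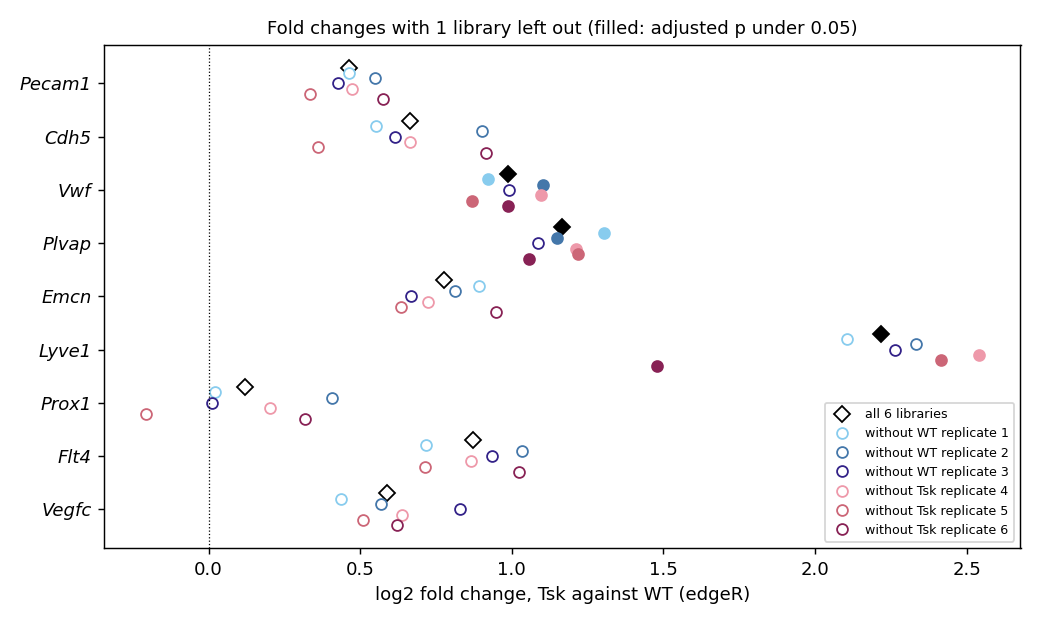
Log2 fold change of each tested member (x axis) with all 6 libraries (diamond) and with 1 library left out (circles), filled where the edgeR adjusted p is under 0.05. Vwf and Plvap open only without wild-type replicate 3, Lyve1 opens without any of the wild-type replicates, and Prox1 crosses 0 without Tsk replicate 5.

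Of 64 further endothelial, lymphatic and VEGF-C pathway genes, 61 were tested, and 6 of them rose and 0 fell, which is 9.84% against 2.72% called higher over all genes tested. Their median log2 fold change was 0.71, against -0.03 over all genes tested, with 52 above 0 and 9 below, where 47% of all genes tested were above 0. At an unadjusted p under 0.05, 31 were higher and 2 lower, and DESeq2 called 14 higher and 0 lower. Over all genes, at least 4000 of 19971 passed the unadjusted p in either direction. DESeq2 called 1136 higher and 411 lower of 34809 genes. These lists, like the members, were chosen with earlier results of these data known.

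Among 24 other genes of endothelium in general, 3 rose, 0 fell and 23 were above 0, with a median of 0.77. Tek, which encodes the angiopoietin receptor, stood at 10.1, 14.1 and 8.80 CPM in wild type and 23.2, 33.4 and 23.8 CPM in Tsk, without overlap (log2 1.29 ± 0.21, edgeR adjusted p = 0.0188). Cd34, a sialomucin of endothelium, fibroblasts and hair follicle stem cells, rose by 0.94 ± 0.16 (edgeR adjusted p = 0.0194). Ramp2, a subunit of the adrenomedullin receptor, stood at 7.33, 12.4 and 10.6 CPM against 18.4, 27.9 and 19.3 CPM (log2 1.11 ± 0.23, edgeR adjusted p = 0.0390). Calcrl, the receptor that Ramp2 pairs with, was named after its values were seen because it was the only one of the 24 below 0, at -0.11 ± 0.22 (edgeR adjusted p = 0.825).

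Of 16 genes of arterial, venous and capillary endothelium, 15 were tested, 1 rose, 0 fell and all 15 were above 0, with a median of 0.80. Over all genes tested, 2.72% were called higher and 47% were above 0. The gene called was Ackr1, an atypical chemokine receptor of venular endothelium and red cells. It stood at 2.33, 3.95 and 2.36 CPM in wild type and 8.07, 7.51 and 13.1 CPM in Tsk, without overlap (log2 1.73 ± 0.30, edgeR adjusted p = 0.0200).

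Of 20 further lymphatic genes 18 were tested, 2 rose, 0 fell, 12 were above 0 and 6 below, with a median of 0.38. Ackr2, a chemokine scavenger of lymphatic endothelium, stood at 3.55, 2.13 and 1.80 CPM in wild type and 7.24, 10.3 and 13.5 CPM in Tsk, without overlap (log2 2.04 ± 0.32, edgeR adjusted p = 0.0159). Nrp2, a co-receptor for VEGF-C that other cells also make, stood at 28.4, 26.7 and 30.8 CPM against 42.6, 51.7 and 52.2 CPM (log2 0.77 ± 0.13, edgeR adjusted p = 0.0185). Of the 9 genes of the VEGF-C pathway, which include Vegfc, Flt4 and Nrp2, 1 rose, 0 fell and 7 were above 0, with a median of 0.65.

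Markers of the other cells of skin gave 3 of 10 fibroblast genes higher with a median of 1.23 and 1 of 11 pericyte and smooth muscle genes higher with a median of 0.56 by edgeR. At an unadjusted p under 0.05, 8 of the fibroblast genes were higher and 0 lower, as by DESeq2. Of the pericyte and smooth muscle genes 7 were higher and 1 lower at that p, and DESeq2 called 5 higher and 1 lower. The fibroblast genes with the smallest p were Dpp4 (log2 2.36 ± 0.20) and Pi16 (3.14 ± 0.43), both of fascial and adventitial fibroblasts. Keratinocyte genes had 0 of 10 called by edgeR or DESeq2 (1 lower at an unadjusted p under 0.05) and a median of -0.27. Skeletal muscle genes had 0 of 20 called by edgeR and a median of -0.81, but 15 were lower and 1 higher at an unadjusted p under 0.05, and DESeq2 called 17 lower and 1 higher. Over all genes, at least 4000 of 19971 passed the unadjusted p in either direction. DESeq2 called 1136 higher and 411 lower of 34809 genes. The fibroblast sum ran from 6245 to 10958 CPM in wild type and 18574 to 42414 CPM in Tsk, with replicate 6 the highest as for Lyve1 and Plvap. The part of these cells in the values of the members was not tested.

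**Figure D5:**
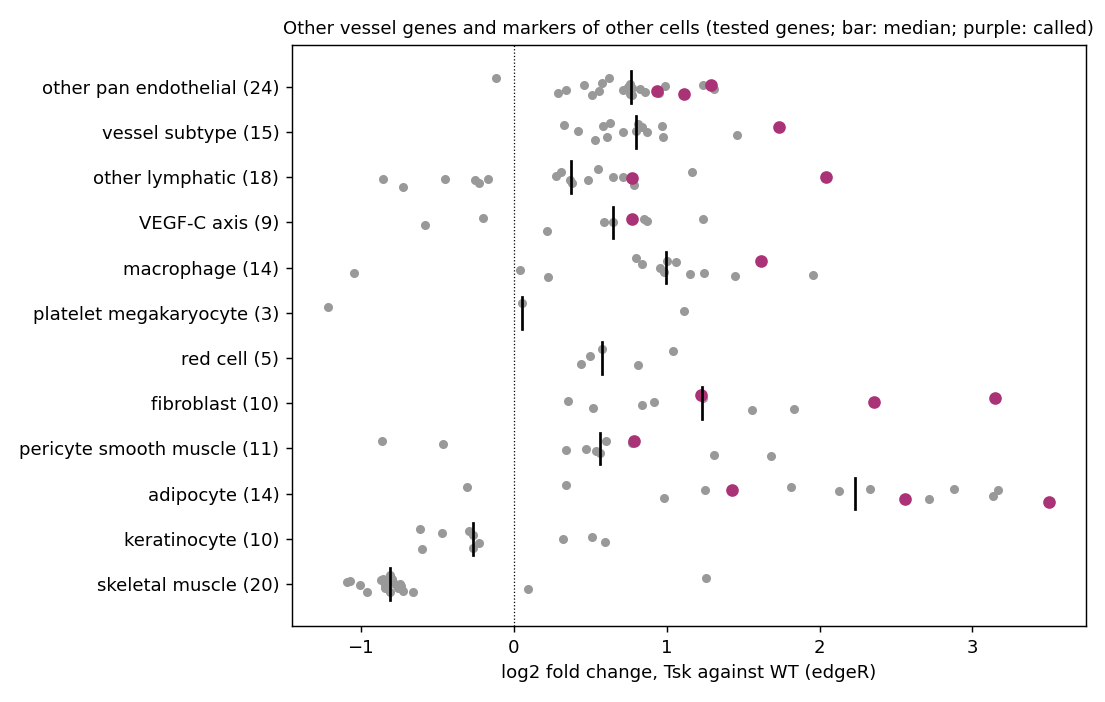
Log2 fold change of Tsk against wild type (x axis) for the tested genes of each list, their number in brackets, with a bar at the median and purple for an adjusted p under 0.05. The endothelial lists lie almost wholly above 0 with medians of 0.77 and 0.80, whereas skeletal muscle genes lie mostly below 0 with a median of -0.81.

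The genes whose pattern over the 6 libraries was most like the mean of the blood endothelial members, among the 15311 genes whose mean log2 CPM reached 1, were Meox2 (Pearson r = 0.995), Gm32687 (0.991), Hs1bp3 (0.990), Clptm1l (0.990) and Sema6a (0.989). For the 4 tested lymphatic members they were Itih5 (0.999), Abi2 (0.996), Ramp2 (0.995), Myh2 (0.993) and Prkd1 (0.993). Over so few libraries, which share their group difference, 99 and 120 genes had an r above 0.95, so the order among them is a description.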

How the data were processed

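Dorsal skin RNA of 6 samples was sequenced from libraries depleted of ribosomal RNA with a stranded dUTP kit, per the labels' protocols. STAR, Partek 7.0 and bcl2fastq 2.19.1.403 are named in the submitters' processing notes, with build mm10. For the counting rule and strand setting, the sources used here give nothing. The authors deposited expected counts per gene, which were rounded to whole numbers for the tests. The deposited CPM values are counts plus 0.0001 scaled to a total of 1e6. The deposited TMM-normalised signal is that CPM times a factor per library. The deposited TPM values sum to about 470308 per library, and which gene length they use is not shown here. In the deposited tables each member's end lies 1 base past that of GENCODE M21, whose coordinates and exon lengths are given.

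Groups came from sample titles and genotype. Counts were tested with edgeR 4.0.16 (R 4.3.3), TMM, robust quasi-likelihood and the default filter (minimum count 10, minimum total 15), with Benjamini-Hochberg adjustment over 19971 genes. SE is the log2 fold change over the square root of F, and intervals are 95% intervals from the t distribution. Alternatives used DESeq2 1.42.0, limma 3.58.1, other scalings, filters and units, a skeletal muscle covariate and leaving out each library. The edgeR step was also run on counts simulated from the means and dispersions fitted here, which checks the code and does not test the calls. Members and lists were chosen with earlier results of these data known. The genes named besides the members are those of each vessel list past the threshold, up to 2 of each list of another cell type by p and the 5 most like each member profile. Calcrl, Gp1ba, Gp1bb, Adgre1, Cd68, Fcgr1, Csf1r and Mrc1 fall outside this rule and were chosen after their values were seen. Fbn1, the gene of the Tsk allele, and the genes that overlap a member are outside it too. Counting intervals cover the counting error of summed reads only, and the reads carry no molecular identifiers. They leave out the spread between libraries.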

Additional observations from a re-analysis of the deposited data

How the results depend on the processing

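The count of genes called was 683, with 3 members and 6 further vessel genes among them. Leaving out each library gave 63 to 1381 genes, 0 to 3 members and 0 to 9 further vessel genes, the lowest without wild-type replicate 3. The 9, without wild-type replicate 1, were 8 higher and 1 lower. The further vessel genes were 3 without Tsk replicate 5, with a median log2 fold change of 0.46 in place of 0.71. Genes called were 328 without wild-type replicate 2, 401 without Tsk replicate 5 and 389 without Tsk replicate 6. The skeletal muscle share of counts did not overlap between groups (17.9 to 26.0% in wild type, 15.4 to 17.7% in Tsk). Muscle level and group therefore cannot be fully told apart. With the skeletal muscle covariate, which also leaves fewer residual degrees of freedom, 6 genes, 0 members and 0 further vessel genes passed. Library totals as the scaling gave 1791, 6 and 27. With limma-trend, the deposited CPM gave 1916, 6 and 25 (pseudocount 0.5) or 1887, 6 and 25 (pseudocount 0.1), the deposited TPM 2492, 6 and 27, and the deposited TMM-normalised values 1279 genes, 4 members and 16 further vessel genes. DESeq2 called 1547 genes and 14 further vessel genes, and no filter 1157 and 10. The cause of these shifts was not tested. Among the members the direction reversed in 1 case, Prox1 at -0.21 without Tsk replicate 5, against 0.41 without wild-type replicate 2. Other scalings by RLE and upper quartiles, a stricter filter, limma-voom, protein-coding genes alone and leaving out muscle and ribosomal RNA genes kept each count within 1.5 times. Depth limits Vegfc and Mmrn1. No paired analysis was possible because the labels number the samples 1 to 3 and 4 to 6, so the groups share no number.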

Other observations

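Ratios between members within a library are free of the scaling between libraries, and 10 such ratios were computed after the values were seen. Lyve1 stood at 1.87, 1.61 and 2.43 times the counts of Prox1 in wild type and at 4.56, 4.08 and 20.7 times in Tsk. Flt4 stood at 0.507, 0.50 and 0.731 times Prox1 in wild type and at 1.09, 0.818 and 1.05 times in Tsk. Plvap stood at 0.259, 0.191 and 0.204 times Pecam1 in wild type and at 0.333, 0.277 and 0.480 times in Tsk. In each of these 3 ratios all 3 Tsk libraries were above all wild-type libraries. Of the 10 ratios 7 reached the two-sided exact permutation p of 0.10, the smallest that 3 against 3 libraries allow (adjusted p = 0.143). No ratio could have fallen under 0.05, so this test cannot decide whether the ratios differ. Prox1 to Pecam1 differed by -0.35 on the log2 scale (exact p = 0.30) and Cdh5 to Pecam1 by 0.17 (exact p = 0.50), both with overlapping groups.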
